A study of Mus musculus with 8 samples.

Results

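The 10 adhesion genes described here were measured in regulatory T cells (Tregs, the CD4 T cells that express Foxp3 and restrain immune responses): 9 integrin chains and the hyaluronan receptor gene Cd44. They were chosen by gene symbol from the 38406 rows of a table of RNA read counts, all 10 were present, and all 10 were among the 14772 genes that had enough counts to be tested. The Tregs came from male C57BL/6 mice with no further allele named in the labels. All mice had been given cardiotoxin, a venom toxin that kills muscle fibres, at 0.9 µg into each injected leg muscle, and tissues were taken at day 4, so the spleen groups also come from injured animals and no uninjured group is described. The 4 groups of 2 libraries are young spleen and young muscle, from mice aged 2 months, and aged spleen and aged muscle, from mice labelled as older than 6 months. Each library was made from 1500 sorted cells, sorted with gates not given in the sources used here. Libraries of a group are described as biological duplicates, but whether these are separate animals or pools is not said, so each p-value reflects the spread between libraries that may share their source.

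Integrins are receptors made of 1 alpha and 1 beta chain that hold cells to other cells and to the extracellular matrix. The pairing fixes the ligand: the αE chain (Itgae) pairs with β7 (Itgb7) and binds E-cadherin on epithelium, while α4 (Itga4) pairs with β7 to bind the gut vessel ligand MAdCAM-1 or with β1 (Itgb1) to bind VCAM-1 and fibronectin. The αL chain (Itgal) pairs with β2 (Itgb2) to form LFA-1, the receptor for the ICAM proteins. The αv chain (Itgav) pairs with β1, β3 (Itgb3), β8 and others and binds matrix proteins and latent TGF-β, and α6 (Itga6) pairs with β1 to bind laminin. In T cells these receptors govern entry into tissue and retention there. CD44 binds hyaluronan in the matrix and is high on antigen-experienced T cells.

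The libraries held 1969982 to 4008622 counts, so that 3 counts correspond to 0.736 to 1.5 CPM, a gene's reads in every 1000000 of the TMM-scaled library total. The 10 markers of the Treg lineage were all detected in every library, with a summed level of 3960 to 5700 CPM, and Foxp3 lay at 15.4 to 41.5 CPM. Their levels were not all alike between groups by edgeR's test. Ctla4 was higher in young muscle than in young spleen (log2 2.29, adjusted p = 5.5e-08) and lower with age in muscle (-0.815, adjusted p = 0.0045). Il2ra was lower with age in spleen (-0.91, adjusted p = 0.0024) and Ikzf2 higher with age in both tissues. Tnfrsf18 was higher in young muscle than in young spleen and with age in spleen. Ikzf2 and Cd3d were lower in muscle of young mice. Between the tissues of aged mice, 3 of the 10 were higher and 3 lower in muscle (all genes 9.57% and 9.27%). In the difference of age effects (muscle minus spleen), Ctla4 was lower (-1.01, adjusted p = 0.0096) and Il2ra higher (0.87, adjusted p = 0.04). Young muscle library 1 stood apart in markers of other cells: its 20 myeloid markers summed to 1010 CPM against 294 to 457 CPM in the other libraries, its 10 stromal markers to 448 CPM against 13.6 to 123, and its 9 platelet markers to 87.7 CPM against 4.84 to 14.5. Pf4 alone made up 74.4 CPM of that platelet sum, and the platelet markers Gp9, Gp1ba, Gp6 and Treml1 were at 0 in this library. The neutrophil marker Ly6g was at 0 in all 8 libraries. Single markers of these other cells also differed between groups by edgeR's test. In young mice 5 of the 20 myeloid markers were higher in muscle (Fcer1g, Tyrobp, Cd68, Cst3 and Adgre1, listed as Emr1), as were Pf4, Tek, Emcn and Col1a1 of the platelet, endothelial and stromal lists. Ebf1 of the B cell list and Nkg7 of the CD8 T and NK cell list were higher there too. With age in spleen, Cd22 of the B cell list, Nkg7 and Tek were higher. In aged mice 1 of 15 tested myeloid markers was higher and 1 lower in muscle, and 1 of 9 B cell markers was lower. Also higher there were 1 of 5 tested markers of CD8 T and NK cells, 1 of 4 of endothelium and 1 of 6 of muscle. Fcer1g and Tyrobp were lower with age in muscle (log2 -5.75, adjusted p = 0.016, and -4.86, adjusted p = 0.021) and in the difference of age effects (-6.53, adjusted p = 0.03, and -5.93, adjusted p = 0.036). In CPM, Fcer1g stood at 39.8 and 7.99 in young muscle and at 0 and 0.846 in aged muscle, and Tyrobp at 74 and 7.99 and at 1.86 and 0.846. The member results that involve young muscle are therefore also given without its library 1 where a call was made, and those of other genes in a closing paragraph. Beyond that, the part of these markers in any result was not tested. In such bulk samples, fewer cells carrying a transcript and less of it per cell cannot be told apart.

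More of the members passed the test between tissues (8 of 10 in young and 6 of 10 in aged mice) than between ages (2 of 10 in muscle and 4 of 10 in spleen), as was so among all genes. Muscle Tregs of young mice had higher Itgae, Itgav, Itgb3, Itgb7 and Cd44 and lower Itga4, Itgal and Itga6 than spleen Tregs, and those of aged mice had higher Itgav, Itgb3, Itgb7 and Cd44 and lower Itga4 and Itgal. With age, Itgae fell and Itga4 rose in muscle, whereas in spleen Itgae and Itgav rose and Itga6 and Itgb3 fell. The age effect itself differed between the tissues for Itgae, Itga4 and Cd44. Itgb1 and Itgb2 passed the threshold in no comparison of that fit.

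These calls are from edgeR's quasi-likelihood test with Benjamini-Hochberg adjustment over all 14772 genes at 0.05. For age in muscle, 1 of 10 members was higher and 1 lower, where 1.14% of all genes tested were higher and 0.88% lower. For age in spleen, 2 members were higher and 2 lower, against 2.08% and 2.17% of all genes. For the difference of the age effects (muscle minus spleen), 1 member was higher and 2 were lower, against 1.35% and 1.17%. For muscle against spleen in young mice, 5 members were higher and 3 lower, against 11.4% and 10.9% of all genes, and in aged mice 4 were higher and 2 lower, against 9.57% and 9.27%. The members moved in both directions: their median log2 fold changes were -0.17, 0.17, 0.01, 0.24 and -0.01 in these 5 comparisons, and those of all genes were 0.03, 0.05, -0.04, 0.07 and 0.03. Leaving out 1 library at a time gave 2 to 3 called members for age in muscle and 2 to 4 for age in spleen. It gave 1 to 3 for the difference, 5 to 8 for tissue in young mice and 3 to 6 in aged mice. In the age comparison within muscle, DESeq2 called 5 members (2 higher and 3 lower), and a fit to the muscle libraries alone called 0, with 4 members at an unadjusted p under 0.05 (50 of all genes were called in that fit). Without young muscle library 1, all 8 members called between the tissues of young mice were still called, with log2 values of 3.07 for Itgae, -2.01 for Itga4, 1.17 for Itgav, -0.56 for Itgal, -1.36 for Itga6, 1.13 for Itgb3, 0.67 for Itgb7 and 1.89 for Cd44.

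**Figure D1:**
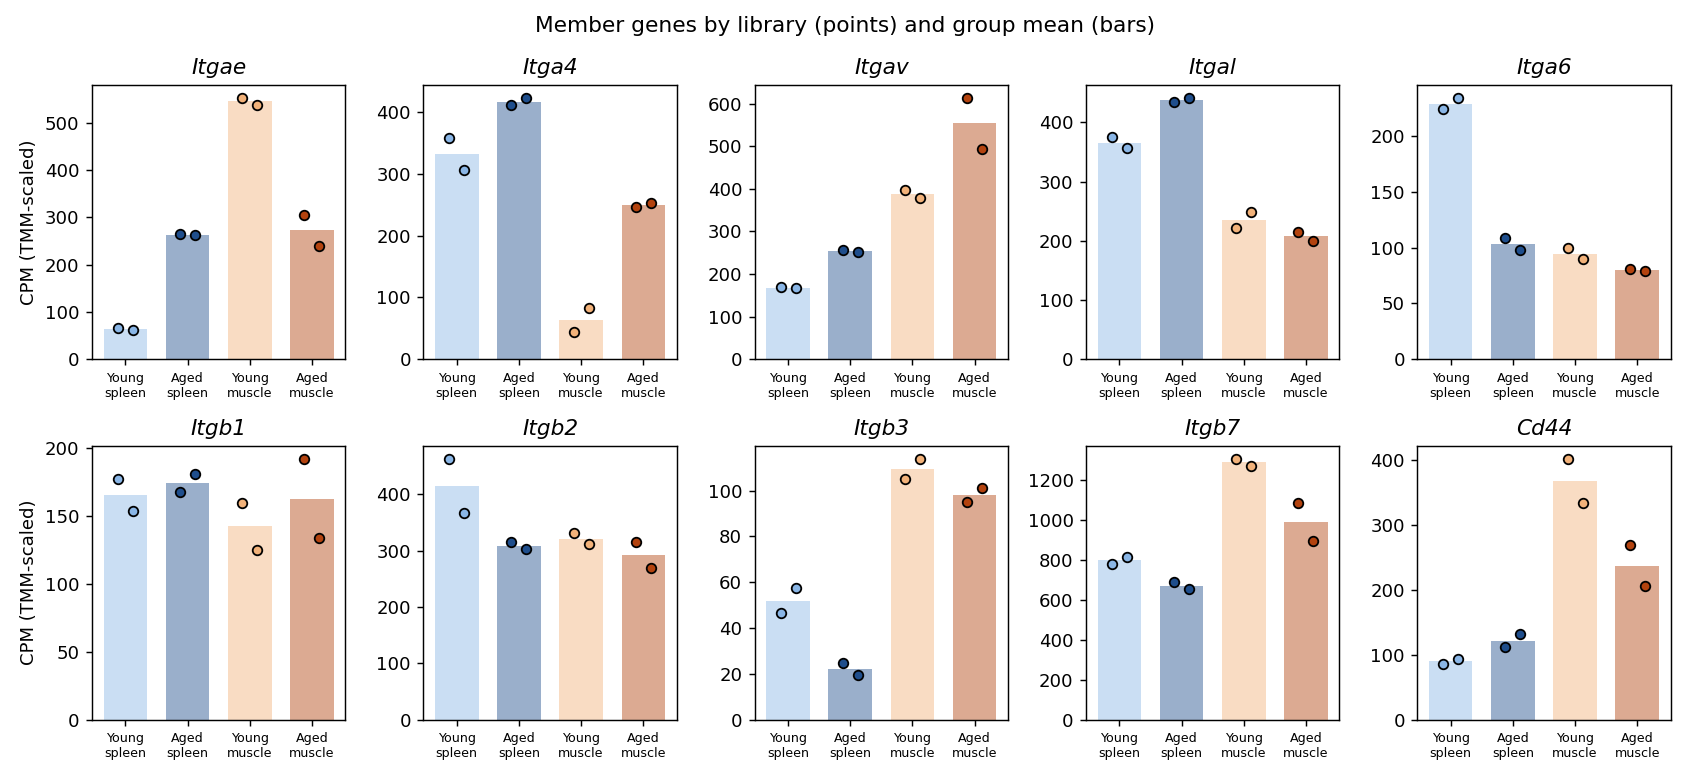
Level of each of the 10 members in every library, as CPM on a linear axis from 0, by group; points are single libraries and bars are group means. Itgae runs from 62.4 to 552.8 CPM and Itga4 from 44.3 to 422.7 CPM, and the libraries of Itgb1 overlap between the groups.

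Itgae was lowest in young spleen and highest in young muscle, and the 2 aged groups lay together between them. The gene spans chromosome 11, 73090583 to 73147446 on the plus strand (GRCm38, 1-based, as are the other positions). Its level was 65.4 and 62.4 CPM in the young spleen libraries and 263.8 and 261.6 CPM in aged spleen. In muscle it was 552.8 and 538.0 CPM in young mice and 305.0 and 239.8 CPM in aged mice. Neither age comparison overlapped, whereas the aged muscle libraries lay on both sides of the aged spleen libraries. The age effect was a rise of 2.04 ± 0.169 on the log2 scale in spleen (SE, adjusted p = 8.6e-06), or 4.11-fold. In muscle the log2 fold change with age was -1.001 ± 0.157 (SE, adjusted p = 0.0028), a 2-fold lower level. The 2 age effects differed by -3.04 ± 0.23 (SE, adjusted p = 3.1e-06). The tissue difference of 3.09 ± 0.173 in young mice (adjusted p = 2e-08) was 0.05 ± 0.156 in aged mice (adjusted p = 0.83). The difference of the age effects was -3.02 (adjusted p = 1.7e-06) and the fall in muscle -0.98 (adjusted p = 0.013) without young muscle library 1. That fall missed the threshold when only the muscle libraries were fitted (adjusted p = 0.12). The gene Haspin (listed under its older symbol Gsg2) lies within Itgae on the opposite strand; they share no exon bases, and Gsg2 had 0 to 15 counts per library.

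Itga4 showed the opposite arrangement in muscle: it was lowest in young muscle and higher in aged muscle. The gene spans chromosome 2, 79255426 to 79333123 on the plus strand. Spleen Tregs had 358.0 and 306.1 CPM in young mice and 410.9 and 422.7 CPM in aged mice. Muscle Tregs had 44.3 and 82.4 CPM in young mice and 245.4 and 253.3 CPM in aged mice. The young muscle libraries differed from each other more than those of any other group in proportion to their mean (63.3 ± 27 CPM, SD, n = 2), yet both lay below every other library. With age, Itga4 rose by 1.99 ± 0.229 in muscle (log2, SE, adjusted p = 0.00029), or 3.97-fold. In spleen the age effect was 0.33 ± 0.207 (adjusted p = 0.47), and the effects differed by 1.66 ± 0.307 (adjusted p = 0.0091). Muscle lay below spleen by a log2 fold change of -2.40 ± 0.23 in young mice (adjusted p = 5.7e-06) and of -0.74 ± 0.209 in aged mice (adjusted p = 0.025).

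Without young muscle library 1 the rise of Itga4 in muscle was 1.60 (adjusted p = 0.00058) and the difference of the age effects was 1.27 (adjusted p = 0.011). The difference missed the threshold without young spleen library 1 (1.54, adjusted p = 0.089), aged spleen library 1 (1.64, adjusted p = 0.082) or aged spleen library 2 (1.68, adjusted p = 0.072). The rise in muscle missed it in the fit to the muscle libraries alone (1.98, adjusted p = 0.056). The lower level in aged muscle than in aged spleen missed it without any 1 of the aged spleen and aged muscle libraries (-0.76 to -0.70, adjusted p = 0.1 to 0.15) and with library size as the only scaling (-0.67, adjusted p = 0.059). Cerkl, on the opposite strand, shares 1124 exon bases with Itga4, and since the strand setting of the counting is not given, reads from those bases cannot be assigned with confidence. Cerkl itself had 73 and 78 counts in muscle at the younger age and 98 and 126 at the older, and in spleen 48 and 66 at the younger age and 185 and 168 at the older.

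Promoter sequences are shown for Itga4 and Cd44, 2 of the 3 genes whose age effect differed between the tissues; RefSeq's promoter table for GRCm38.p6 matched 5 of the 10 members (Itga4, Itgav, Itgb1, Itgb7 and Cd44). The Itga4 stretch is chr2:79255176-79255425 on the plus strand and the Cd44 stretch chr2:102901666-102901915 on the minus strand. Each holds the 250 bases before the annotated start, 5′ to 3′, with motif matches in capitals.
Itga4: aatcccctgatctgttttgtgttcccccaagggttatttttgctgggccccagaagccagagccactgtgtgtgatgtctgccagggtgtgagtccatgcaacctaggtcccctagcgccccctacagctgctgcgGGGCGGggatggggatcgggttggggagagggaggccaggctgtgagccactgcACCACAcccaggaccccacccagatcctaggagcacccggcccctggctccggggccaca
Cd44: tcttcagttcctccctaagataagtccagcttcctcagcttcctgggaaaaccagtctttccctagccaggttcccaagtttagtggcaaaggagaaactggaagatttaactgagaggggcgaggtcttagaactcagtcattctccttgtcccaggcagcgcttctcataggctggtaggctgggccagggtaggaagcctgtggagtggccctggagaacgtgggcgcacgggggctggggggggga
In Itga4 the capitals mark an Sp1 motif (GGGCGG), beginning 114 bases before the start on the gene's strand, and a RUNX motif (TGTGGT, here on the opposite strand and so read as ACCACA), 60 bases before the start. Cd44 held none of the 5 motifs searched on both strands. The motifs, chosen after the expression values were known, were these 2, the AP-1 motif TGANTCA, the ETS motif CCGGAAG and an interferon-response motif. Of 32851 promoter windows of this length, 32.7% held the Sp1 motif, 14% the RUNX motif, 6.75% the AP-1 motif, 6.91% the ETS motif and 2.98% the interferon-response motif. Of the other 3 members with a sequence, Itgb1 held an Sp1 motif 151 bases before its start and Itgav and Itgb7 held no match. A match is a description of the letters and was not tested for binding.

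Itgav was higher in muscle than in spleen at both ages and rose with age in spleen. It lies on chromosome 2, 83724397 to 83806916 on the plus strand. Its level was 169.2 and 167.0 CPM in young spleen, 398.3 and 378.1 in young muscle, 257.2 and 252.1 in aged spleen and 613.8 and 494.8 in aged muscle. No 2 groups overlapped. Muscle exceeded spleen by 1.21 ± 0.156 on the log2 scale in young mice (SE, adjusted p = 6.4e-05) and by 1.12 ± 0.153 in aged mice (adjusted p = 0.00016). The age effect was 0.60 ± 0.155 in spleen (adjusted p = 0.04) and 0.51 ± 0.151 in muscle (adjusted p = 0.11), and the difference between these, -0.09 ± 0.216, did not pass the test (adjusted p = 0.94). The call in spleen was lost without any 1 of the 4 spleen libraries (0.59 to 0.61, adjusted p = 0.23 to 0.29). In muscle the age effect passed the threshold with library size as the only scaling (0.63), with DESeq2 (0.51) and without aged muscle library 2 (0.66).

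Itgal, the α chain of LFA-1, was lower in muscle at both ages. It lies on chromosome 7, 127296260 to 127335138 on the plus strand. Young spleen had 375.3 and 356.8 CPM and aged spleen 435.4 and 441.4 CPM, against 220.9 and 247.8 CPM in young muscle and 214.9 and 199.6 CPM in aged muscle. Every muscle library lay below every spleen library. The log2 tissue difference was -0.64 ± 0.148 in young mice (SE, adjusted p = 0.0061) and -1.08 ± 0.147 in aged mice (adjusted p = 0.00017). The first of these missed the threshold without young spleen library 1 (-0.61, adjusted p = 0.069). The age effects were 0.26 in spleen (adjusted p = 0.39) and -0.18 in muscle (adjusted p = 0.61).

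Itga6, a laminin receptor chain, stood high in young spleen only. The gene spans chromosome 2, 71745616 to 71858416 on the plus strand. The young spleen libraries had 224.3 and 234.4 CPM, while the other 6 libraries lay between 79.08 and 108.9 CPM. Of these, aged spleen had 108.9 and 98.05 CPM, young muscle 99.37 and 89.42 CPM and aged muscle 80.45 and 79.08 CPM. It fell with age in spleen by 1.15 ± 0.167 on the log2 scale (SE, adjusted p = 0.00091), or 2.21-fold. In young mice muscle was lower than spleen, by a log2 value of -1.28 ± 0.171 (adjusted p = 8.5e-05). In aged mice the tissue difference was -0.38 (adjusted p = 0.13), and in muscle the age effect was -0.24 (adjusted p = 0.54). The difference of its age effects, 0.90 ± 0.241, lay just short of the threshold (adjusted p = 0.067) and passed it with DESeq2's size factors (0.92) or with library size as the only scaling (0.86).

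Among the β chains, Itgb7 and Itgb3 differed between the tissues at both ages. Itgb7, the partner of αE and α4, lies on chromosome 15, 102215995 to 102231944, minus strand. It had 782.3 and 816.8 CPM in young spleen, 1308 and 1271 in young muscle, 689.7 and 655.5 in aged spleen and 1087 and 898.2 in aged muscle. All muscle libraries exceeded all spleen libraries. The tissue difference was 0.69 ± 0.143 in young mice (log2, SE, adjusted p = 0.0031) and 0.56 ± 0.143 in aged mice (adjusted p = 0.014). The former missed the threshold without young spleen library 1 (0.66, adjusted p = 0.058) and the latter without aged spleen library 1 (0.60, adjusted p = 0.1) or 2 (0.53, adjusted p = 0.14). With age the level was lower without passing the test in spleen (-0.25, adjusted p = 0.41) and in muscle (-0.38 ± 0.142, adjusted p = 0.21; DESeq2 called the latter).

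Itgb3, a partner of αv, was the least abundant member in aged spleen. Its position is chromosome 11, 104608000 to 104670476 on the plus strand. Its level was 46.73 and 57.34 CPM in young spleen, 105.0 and 113.9 in young muscle, 24.76 and 19.34 in aged spleen and 94.97 and 101.1 in aged muscle. The spleen groups did not overlap, and all muscle libraries lay above all spleen libraries. In spleen Itgb3 fell with age by 1.23 ± 0.228 on the log2 scale (SE, adjusted p = 0.006), a call that was lost without young spleen library 2 (-1.07, adjusted p = 0.11) or aged spleen library 2 (-1.07, adjusted p = 0.12). In muscle the age effect was -0.16 (adjusted p = 0.76), and the difference of the effects was 1.07 ± 0.309 (adjusted p = 0.094). The excess of muscle over spleen was 1.07 ± 0.216 in young mice (adjusted p = 0.0027) and 2.14 ± 0.225 in aged mice (adjusted p = 1.6e-05). Platelets also carry β3, and the platelet marker Pf4 stood at 74.4 CPM in young muscle library 1 and 4 CPM in young muscle library 2. Itgb3 was 105.0 CPM in the first of these and 113.9 CPM in the second, and the part of platelet RNA in its level was not tested. Without young muscle library 1 the difference in young mice was 1.13 (adjusted p = 0.0046), and without young spleen library 1 it was 0.93 (adjusted p = 0.053).

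Itgb1 and Itgb2, β chains that several α chains share, passed the threshold in no comparison of the fit to all 8 libraries. Itgb1 (chromosome 8, 128685654 to 128733200, plus strand) ranged over all 8 libraries from 124.9 to 191.8 CPM, and the groups of every pair compared overlapped. Its means were 165.0 ± 16.4 CPM in young spleen, 142.1 ± 24.3 in young muscle, 174.3 ± 9.29 in aged spleen and 162.5 ± 41.4 in aged muscle (SD, n = 2). Its log2 fold changes lay between -0.21 and 0.19 in the 5 comparisons. Itgb2 (chromosome 10, 77530252 to 77565708, plus strand) had 462.7 and 365.8 CPM in young spleen, and the other 6 libraries lay between 269.8 and 330.3 CPM. Young spleen lay above aged spleen and young muscle without overlap, by log2 values that did not pass the test (aged minus young -0.42 ± 0.159, adjusted p = 0.17; muscle minus spleen -0.37 ± 0.16, adjusted p = 0.11). The age difference in spleen passed it in the fit to the spleen libraries alone (-0.44, adjusted p = 0.007).

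Cd44 was higher in muscle than in spleen at both ages, and the fitted gap was wider in young mice. The gene spans chromosome 2, 102811141 to 102901665 on the minus strand. Spleen Tregs had 86.46 and 93.76 CPM in young mice and 112.0 and 132.0 CPM in aged mice. Muscle Tregs had 402.3 and 333.7 CPM in young mice and 268.9 and 205.9 CPM in aged mice. None of the groups overlapped. The tissue difference was 2.03 ± 0.187 in young mice (log2, SE, adjusted p = 2.3e-06), or 4.08-fold, and 0.96 ± 0.18 in aged mice (adjusted p = 0.0021), or 1.95-fold. The age effects were 0.43 ± 0.185 in spleen (adjusted p = 0.25) and -0.63 ± 0.177 in muscle (adjusted p = 0.089), neither past the threshold, while their difference of -1.07 ± 0.256 was (adjusted p = 0.038). The age effect in muscle passed it with no filter (-0.65, adjusted p = 0.036), with DESeq2 (-0.64, adjusted p = 0.032), without young muscle library 2 (-0.76, adjusted p = 0.031) and without aged muscle library 1 (-0.83, adjusted p = 0.035). That in spleen passed it with library size as the only scaling (0.60, adjusted p = 0.045).

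That difference for Cd44 was close to the threshold. It was lost without any 1 of the spleen libraries, young muscle library 1 or aged muscle library 2 (-1.18 to -0.89, adjusted p = 0.082 to 0.23). Without young muscle library 1 alone, the tissue difference in young mice was 1.89 (adjusted p = 5.6e-06), the age effect in muscle -0.49 (adjusted p = 0.4) and the difference of age effects -0.92 (adjusted p = 0.1). The tissue difference in aged mice missed the threshold without aged spleen library 1 (0.85, adjusted p = 0.057). Myeloid and stromal cells also express Cd44, and it was 402.3 CPM in the young muscle library with 1010 CPM of myeloid markers and 333.7 CPM in the one with 308 CPM. The aged muscle libraries, with 305 and 329 CPM of these markers, had 268.9 and 205.9 CPM of Cd44. In the first of them 9 of the 20 myeloid markers were at 0, among them Fcer1g, C1qa, C1qb, C1qc, S100a8 and S100a9. Most of its sum came from Ctss (162 CPM) and Cst3 (81.2 CPM). The part of myeloid or stromal cells in the Cd44 values was not tested.

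**Figure D2:**
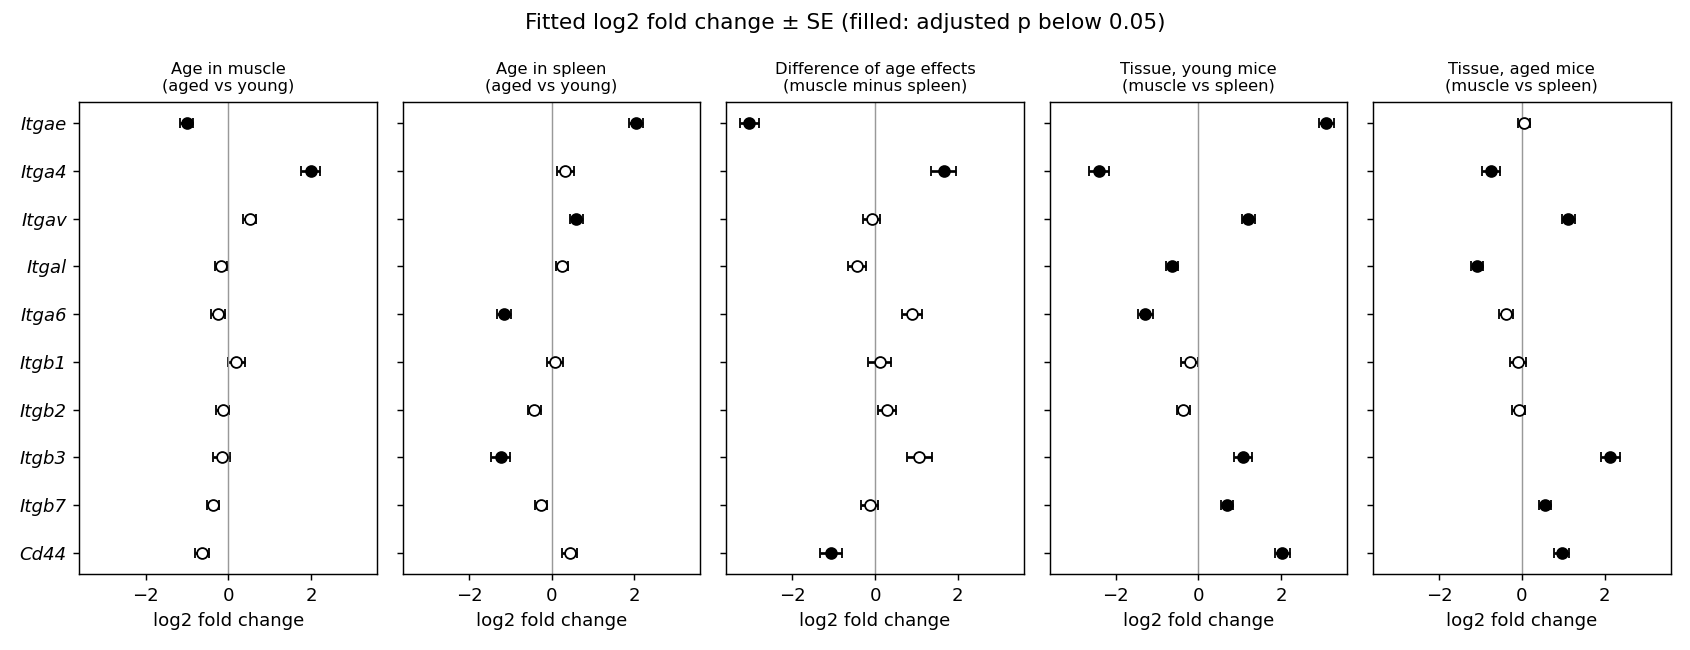
Log2 fold change of each member in the 5 comparisons, with bars of 1 standard error; filled points have an adjusted p below 0.05. Tissue effects reach 3.09 for Itgae and -2.40 for Itga4 in young mice. The β1 and β2 chains have no filled point, with Itgb1 between -0.21 and 0.19 and Itgb2 between -0.42 and 0.29.

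**Figure D3:**
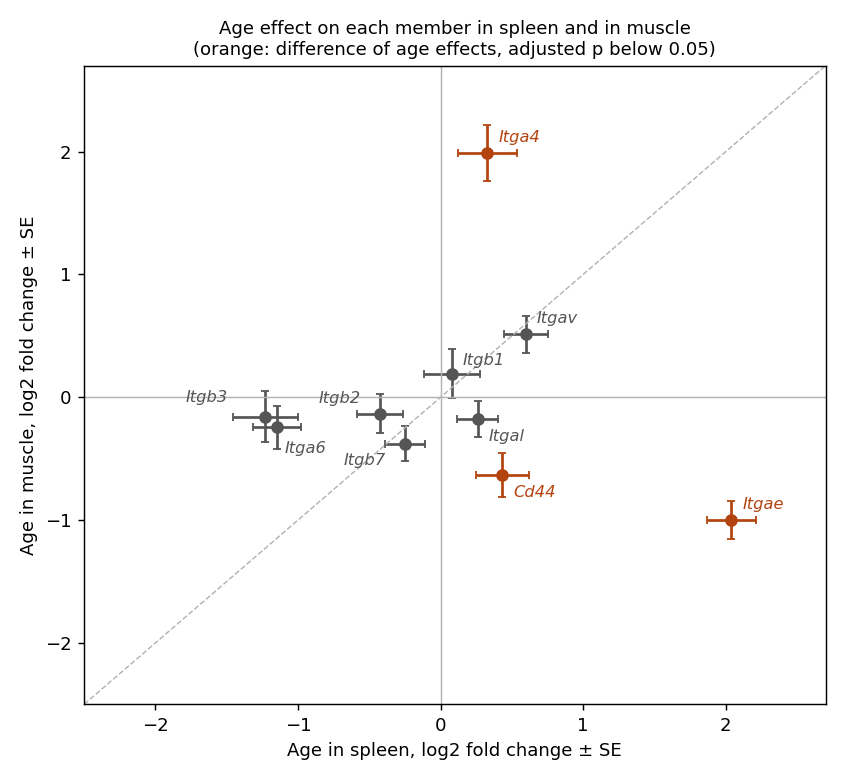
Age effect of each member in spleen (x axis) against muscle (y axis), both as log2 fold change (aged minus young) with bars of 1 standard error; the dashed line marks equal effects. Itgae lies at 2.04 and -1.001, Itga4 at 0.33 and 1.99, and Cd44 at 0.43 and -0.63.

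Because each α chain needs a β partner, the ratio of their read counts within a library shows how the transcripts of a pair stood to each other without any scaling between libraries. Genes differ in length, so the ratios are read across libraries and not as numbers of molecules. Itgae to Itgb7 was 0.0836 and 0.0764 in young spleen, 0.423 and 0.423 in young muscle, 0.383 and 0.399 in aged spleen and 0.281 and 0.267 in aged muscle. Itga4 to the same partner was 0.458 and 0.375 in young spleen, 0.0338 and 0.0649 in young muscle, 0.596 and 0.645 in aged spleen and 0.226 and 0.282 in aged muscle. The groups did not overlap in either ratio. Between the α chains that share β7, Itgae to Itga4 was 0.183 and 0.204 in young spleen, 12.5 and 6.53 in young muscle, 0.642 and 0.619 in aged spleen and 1.24 and 0.947 in aged muscle. The ratio thus stood further apart between the tissues of young mice than between those of aged mice.

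The next 4 pairs each set 1 group apart from the rest. Itga4 to Itgb1 was 0.278 and 0.66 in young muscle and 1.28 to 2.45 in the other 6 libraries. Itgal to Itgb2 was 1.38 and 1.46 in aged spleen and 0.669 to 0.976 elsewhere. Itgav to Itgb3 was 10.4 and 13 in aged spleen, where Itgb3 was lowest, and 2.91 to 6.46 elsewhere. Itga6 to Itgb1 was 1.27 and 1.53 in young spleen and 0.419 to 0.716 elsewhere. Itgav to Itgb1 split by tissue instead, at 0.958 to 1.53 in the spleen libraries and 2.5 to 3.71 in the muscle libraries. No test was run on the ratios.

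**Figure D4:**
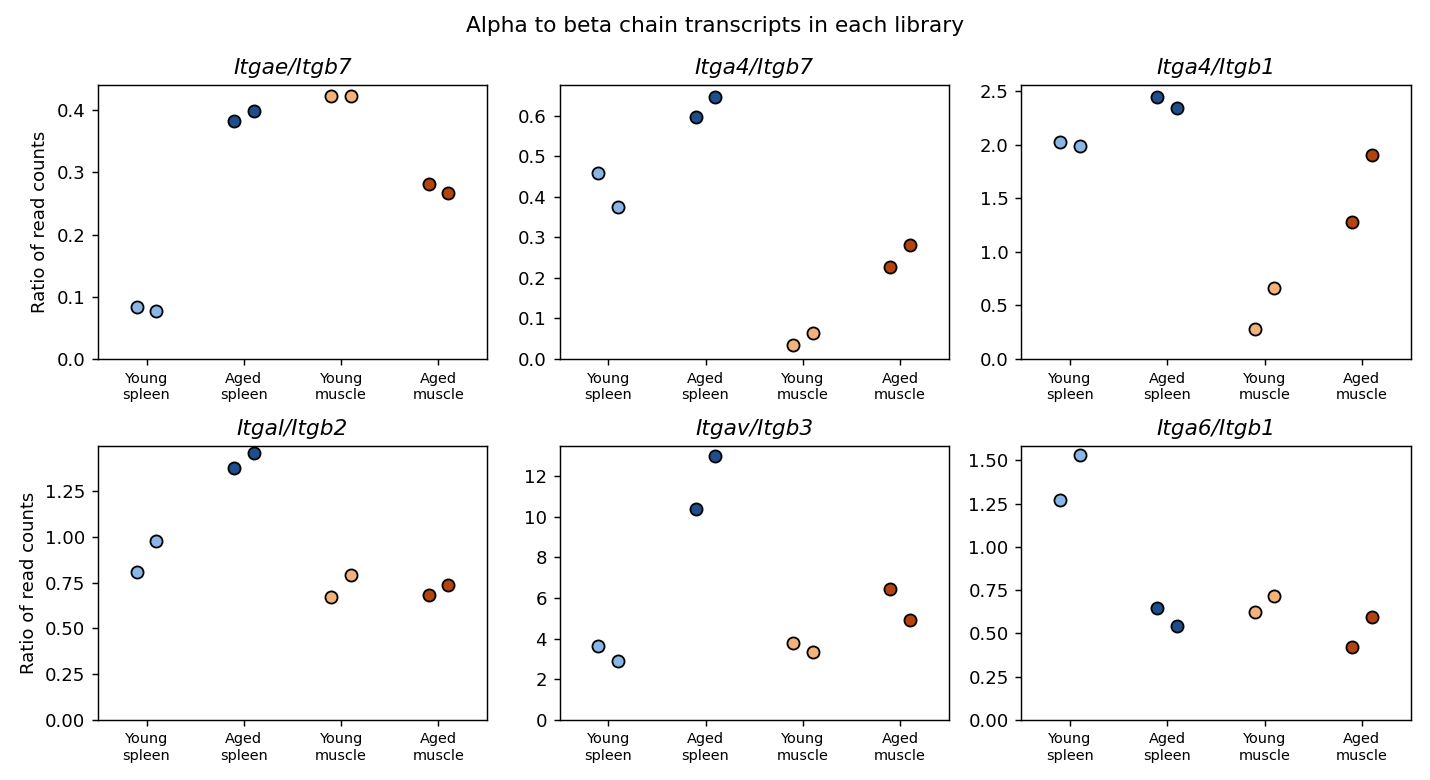
Ratio of read counts of an α chain to a β chain that can partner it, in each library by group, on linear axes that start at 0. Itgae to Itgb7 is lowest in young spleen and Itga4 to Itgb7 lowest in young muscle.

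To compare levels between genes, CPM was divided by each gene's exon length in kilobases. Itgb7 was the most abundant member in all 4 groups, at 289 ± 8.8 CPM per kb in young spleen, 465 ± 9.5 in young muscle, 243 ± 8.7 in aged spleen and 358 ± 48 in aged muscle (SD, n = 2). In young spleen the order went on with Itgb2 (136 ± 22), Itgal (55.7 ± 2), Itgb1 (40.4 ± 4), Itga6 (25.4 ± 0.79), Itga4 (23.8 ± 2.6), Itgav (15.6 ± 0.14), Itgae (13.9 ± 0.47), Cd44 (13.3 ± 0.76) and Itgb3 (8.82 ± 1.3 CPM per kb). Within that order Itga6 and Itga4, and Itgae and Cd44, lay within their spread. In young muscle Itgae was second at 119 ± 2.3 CPM per kb, ahead of Itgb2 (105 ± 4.2) and Cd44 (54.3 ± 7.2). Itgav (36.1 ± 1.3), Itgal (35.7 ± 2.9) and Itgb1 (34.8 ± 6) did not differ there beyond their spread, and Itgb3 (18.5 ± 1.1), Itga6 (10.5 ± 0.78) and Itga4 (4.53 ± 1.9 CPM per kb) came last.

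In aged spleen Itgb7 was followed by Itgb2 (101 ± 3 CPM per kb), Itgal (66.7 ± 0.64), Itgae (57.3 ± 0.34), Itgb1 (42.7 ± 2.3), Itga4 (29.8 ± 0.6), Itgav (23.7 ± 0.34), Cd44 (18 ± 2.1), Itga6 (11.5 ± 0.85) and Itgb3 (3.74 ± 0.65). All neighbours in that order stood apart by more than their SDs. In aged muscle the order was Itgb2 (95.9 ± 11 CPM per kb), Itgae (59.5 ± 10), Itgav (51.6 ± 7.8), Itgb1 (39.8 ± 10), Cd44 (35 ± 6.6), Itgal (31.5 ± 1.6), Itga4 (17.8 ± 0.4), Itgb3 (16.6 ± 0.73) and Itga6 (8.84 ± 0.11), and from Itgae to Itgal the neighbours overlapped within their spread. How reads lie along a transcript is not given in the sources used here, and the order depends on the length used. With coding length in place of exon length (3096 against 13978 bases for Itga4), Itga4 moved from rank 6 to rank 2 in aged spleen and Itgae from rank 4 to rank 6. In young muscle Itgae moved from rank 2 to rank 3, at 156 CPM per coding kb, and Cd44 from rank 4 to rank 2, at 157. Itgae also moved from rank 3 to rank 6 in aged muscle and from rank 8 to rank 10 in young spleen. Itgb7 stayed first in every group and Itga4 last in young muscle.

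**Figure D5:**
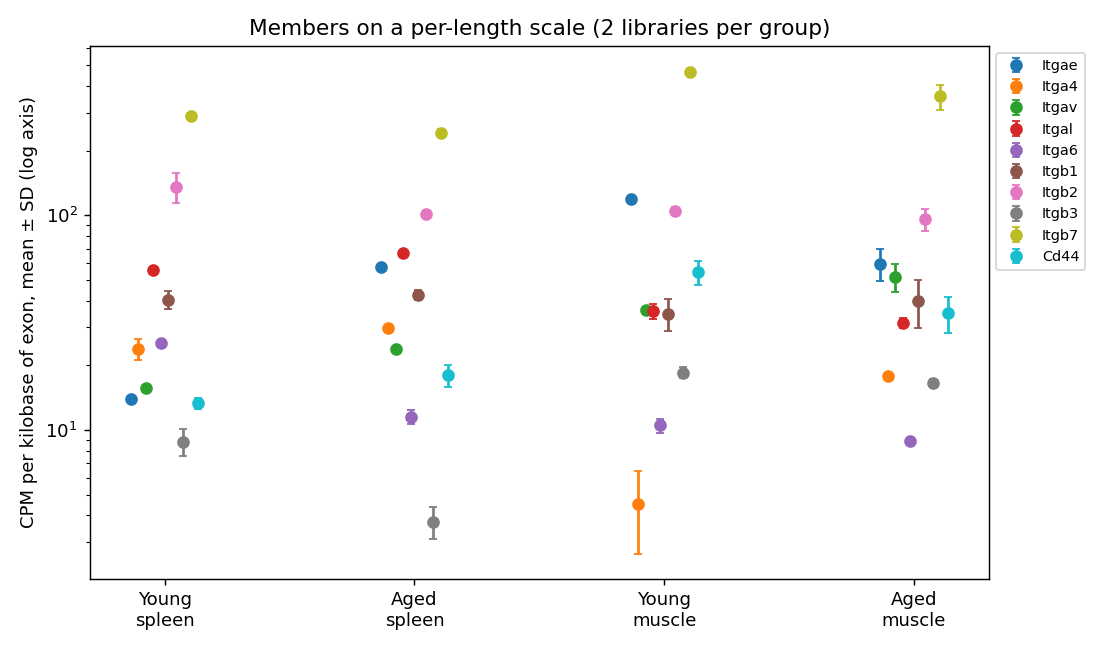
Level of each member per kilobase of exon in the 4 groups, as mean CPM per kb on a log axis with bars of 1 SD (n = 2). Itgb7 is highest in every group, and Itgae moves from 13.9 in young spleen to 119 in young muscle.

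The genes that most resembled the members over the 8 libraries were sought among 7798 genes with a mean log2 CPM of at least 4, by the root mean square difference of mean-centred log2 CPM. Il10, which encodes the anti-inflammatory cytokine interleukin 10, was nearest to Itgae at 0.158, ahead of Ehd1 (0.364) and Ttc39c (0.403). Il10 had 34.1 and 41.5 CPM in young spleen, 326 and 266 in young muscle, 149 and 143 in aged spleen and 188 and 167 in aged muscle. Like Itgae it was lowest in young spleen and highest in young muscle. Itga4 had no neighbour as close: Iigp1, an interferon-induced GTPase, lay at 0.35, Ifih1, an RNA sensor, at 0.357 and Cdyl2 at 0.362. Iigp1 had 63.1 and 49.6 CPM in young spleen, 10.9 and 17.5 in young muscle, 107 and 115 in aged spleen and 91.6 and 62.2 in aged muscle.

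Itgav was nearest to Tnfrsf18, which encodes the Treg surface receptor GITR (0.124), then Wdr90 (0.137) and Litaf (0.175). For Itgb3 the nearest were the gene named a (nonagouti, 0.23), Vps37b (0.248) and Socs2, an inhibitor of cytokine signalling (0.259). Cd44 had the closest match of the 5 genes examined: the clock gene Per1 lay at 0.0683, the transcription factor gene Nfil3 at 0.0916 and Bcl3, a regulator of NF-κB, at 0.118. Per1 had 112 and 112 CPM in young spleen, 455 and 416 in young muscle, 146 and 168 in aged spleen and 342 and 271 in aged muscle. The 8 libraries fall into 4 groups, so that few independent points lie behind each likeness.

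Of 17 other integrin chains, 15 were tested. In young mice 6 were higher in muscle and 0 lower (all genes 11.4% and 10.9%), and in aged mice 3 were higher and 1 lower (all genes 9.57% and 9.27%). Their median log2 tissue differences were 0.95 and 0.68, against 0.07 and 0.03 for all genes. Itga3, another laminin receptor chain, had 7.94 and 13.6 CPM in young spleen, 97.4 and 123 in young muscle, 20.3 and 23.1 in aged spleen and 73.7 and 68.9 in aged muscle. Its tissue difference was 3.33 ± 0.294 in young mice (SE, adjusted p = 1.4e-06) and 1.72 ± 0.264 in aged mice (adjusted p = 0.00045). In young mice Itga3 was thus higher in muscle, where the laminin receptor chain Itga6 was lower. The myeloid chain gene Itgam was also higher in young muscle (2.65 ± 0.566, adjusted p = 0.0038), at 18.5 and 28 CPM against 4.67 and 2.71 CPM in young spleen, and it missed the threshold without young spleen library 2 (adjusted p = 0.057). The 18.5 CPM belonged to the young muscle library with more myeloid markers, and the part of myeloid cells in this difference was not tested.

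Itgb8, which with αv activates latent TGF-β, had 80.9 and 70.9 CPM in young spleen and 157 and 151 CPM in aged spleen. In muscle it had 40.2 and 56.9 CPM in young mice and 97.2 and 63.9 CPM in aged mice. It rose with age in spleen by 1.02 ± 0.23 (log2, SE, adjusted p = 0.019) and was lower in muscle of aged mice (-0.93 ± 0.228, adjusted p = 0.011), where Itgav was higher. The rise in spleen was lost without any 1 of the spleen libraries (adjusted p up to 0.22), and the tissue difference without aged spleen library 1 or 2 or aged muscle library 2 (adjusted p up to 0.11). The ratio of Itgav to Itgb8 counts was 1.64 to 2.36 in the spleen libraries and 6.31 to 9.9 in the muscle libraries. With age in muscle 0 of the 15 chains passed edgeR's test, against 1.14% of all genes higher and 0.88% lower. Of the 15, 3 had an unadjusted p under 0.05 and 0 were called by DESeq2. The difference of age effects gave 1 chain, against 1.35% of all genes higher and 1.17% lower. That chain was Itga3 (-1.62 ± 0.39, adjusted p = 0.039), a call that was lost without any 1 of 6 libraries.

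Of 15 genes for integrin ligands, 10 were tested. In young mice 2 were higher in muscle and 1 lower (all genes 11.4% and 10.9%). In aged mice 4 were higher and 1 lower (all genes 9.57% and 9.27%). Icam1, a ligand of LFA-1 that T cells also carry, had 74.8 and 61.2 CPM in young spleen, 355 and 354 in young muscle, 106 and 103 in aged spleen and 365 and 288 in aged muscle. It was higher in muscle by 2.39 ± 0.181 in young mice (log2, SE, adjusted p = 3.1e-07) and by 1.64 ± 0.172 in aged mice (adjusted p = 1.6e-05), while Icam2 was lower by log2 values of -1.82 ± 0.223 (adjusted p = 4e-05) and -1.13 ± 0.22 (adjusted p = 0.0026; 0.069 without aged spleen library 1). Thus 2 ligands of the same receptor differed in opposite directions. Lamc1, a laminin chain gene, had 35.5 and 40.3 CPM in young spleen, 247 and 281 in young muscle, 76.2 and 63.1 in aged spleen and 168 and 135 in aged muscle. Its age effects differed between the tissues by -1.68 ± 0.272 (adjusted p = 0.0029), in the same direction as those of Itgae and Cd44. Spp1 (osteopontin, a ligand of αv integrins) stood at 190 CPM in young muscle library 1 and at 0.745 to 9.35 CPM in all others.

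Integrins bind firmly only after signals inside the cell have activated them. Of 23 genes of that step, 2 were higher and 7 lower in muscle of young mice (all genes 11.4% and 10.9%). In aged mice 1 was higher and 4 lower (all genes 9.57% and 9.27%). Skap1, an adaptor that helps activate LFA-1, had 2350 and 2340 CPM in young spleen, 1150 and 1220 in young muscle, 1910 and 2000 in aged spleen and 1130 and 936 in aged muscle. It was lower in muscle by log2 values of -0.98 ± 0.142 in young mice (adjusted p = 0.00017) and -0.92 ± 0.142 in aged mice (adjusted p = 0.00047). Rap1b, the GTPase of this step, was higher, by 1.01 ± 0.15 (adjusted p = 0.00022) and 1.16 ± 0.15 (adjusted p = 0.00011), and Rapgef1, which activates Rap1, was lower (-1.09 ± 0.178 and -1.28 ± 0.176, adjusted p = 5e-04 and 0.00018). With age in spleen 1 of the 23 was higher (Tln2, a talin gene) and 2 were lower, against 2.08% and 2.17% of all genes. The lower ones were Rasgrp2 (-1.35 ± 0.207, adjusted p = 0.0014), another activator of Rap1, and Cyth1 (-0.69 ± 0.154, adjusted p = 0.018). Without aged spleen library 2, Rasgrp2 missed the threshold (adjusted p = 0.06), and Cyth1 and Tln2 did so without any 1 of the spleen libraries (Tln2 also with DESeq2's size factors, adjusted p = 0.052). With age in muscle 0 of 23 passed edgeR's test, against 1.14% of all genes higher and 0.88% lower. Of the 23, 7 had an unadjusted p under 0.05, and DESeq2 called 1, Apbb1ip, as lower.

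Of 24 genes that signal from bound integrins to the cytoskeleton, 8 were higher and 6 lower in muscle of young mice (all genes 11.4% and 10.9%). In aged mice 3 were higher and 6 lower (all genes 9.57% and 9.27%). Actn1, an actin crosslinker at adhesion sites, had 328 and 301 CPM in young spleen, 73.6 and 29 in young muscle, 121 and 105 in aged spleen and 29.1 and 25.4 in aged muscle. It was lower in muscle by log2 values of -2.60 ± 0.323 (adjusted p = 0.00027) and -2.05 ± 0.336 (adjusted p = 0.0023) in young and aged mice. Over the alternatives the first of these ran from -3.44, without young muscle library 1, to -2.09. Like Itga6 it fell in spleen with age (-1.48 ± 0.301, adjusted p = 0.021), a call lost without any 1 of the spleen libraries (adjusted p up to 0.22). With age in muscle 0 of 24 passed edgeR's test, against 1.14% of all genes higher and 0.88% lower. Of the 24, 6 had an unadjusted p under 0.05, and DESeq2 called 0.

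Of 18 genes that act with CD44 or on hyaluronan, 15 were tested. Between tissues 3 were higher and 2 lower in muscle of young mice (all genes 11.4% and 10.9%). In aged mice 4 were higher and 2 lower (all genes 9.57% and 9.27%). With age 1 was higher and 1 lower in muscle (all genes 1.14% and 0.88%), and 1 was higher in spleen (all genes 2.08%). Ank3, which encodes an ankyrin that links membrane proteins to the cytoskeleton, had 22.4 and 22.5 CPM in young spleen, 326 and 292 in young muscle, 37 and 35.3 in aged spleen and 74.5 and 111 in aged muscle. It fell with age in muscle by 1.74 ± 0.202 (log2, SE, adjusted p = 0.00022), and its age effects differed between the tissues by -2.43 ± 0.307 (adjusted p = 4e-04). Cd74, the invariant chain of MHC class II and a partner of CD44 as receptor for the cytokine MIF, rose with age in both tissues. It had 46.7 and 35.6 CPM in young spleen, 72.4 and 43 in young muscle, 293 and 325 in aged spleen and 291 and 223 in aged muscle. The rise was 2.91 ± 0.245 in spleen (adjusted p = 1.2e-05) and 2.14 ± 0.237 in muscle (adjusted p = 0.00022). B cells carry much Cd74, and the 10 B cell markers summed to 107 and 119 CPM in young spleen, 122 and 173 in young muscle, 153 and 201 in aged spleen and 117 and 154 in aged muscle. Of the 9 of these markers tested, 1, Cd22, was higher with age in spleen (log2 1.37, adjusted p = 0.044), and 0 were called with age in muscle. The part of B cell RNA in the rise was not tested. Mmp9, a protease that docks on CD44, was higher in muscle of young mice (3.77 ± 0.578, adjusted p = 0.0014), at 133 and 75.4 CPM against 1.87 and 12.8 CPM in spleen. Over the alternatives its log2 value ran from 3.03 to 5.77.

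Among 33 other adhesion receptors and enzymes that modify such receptors, 8 were higher and 10 lower in muscle of young mice (all genes 11.4% and 10.9%). In aged mice 4 were higher and 8 lower (all genes 9.57% and 9.27%). Cd96, a receptor for nectin-family ligands, was lower in muscle by log2 values of -3.33 ± 0.282 in young mice (adjusted p = 9.4e-07) and -1.56 ± 0.252 in aged mice (adjusted p = 7e-04). With age in spleen 3 of the 33 were higher and 4 lower (all genes 2.08% and 2.17%). With age in muscle 1 was higher (St3gal6, a call lost without any 1 of 7 libraries) and 0 lower (all genes 1.14% and 0.88%). There DESeq2 called Cd47 and Selplg as lower, and 8 of the 33 had an unadjusted p under 0.05 in edgeR's test.

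TGF-β induces Itgae in T cells, so 18 genes of that pathway and its RUNX partners were examined, of which 17 were tested. With age 0 of 17 passed edgeR's test in muscle (3 at an unadjusted p under 0.05) and 0 in spleen (4 at an unadjusted p under 0.05), and DESeq2 called 0 in either. Of all genes, 1.14% were higher and 0.88% lower with age in muscle and 2.08% and 2.17% in spleen, so that 0 of 17 is near the share over all genes. Between tissues 4 were higher and 6 lower in muscle of young mice (all genes 11.4% and 10.9%). In aged mice 3 were higher and 4 lower (all genes 9.57% and 9.27%). Runx1, a transcription factor, had 493 and 477 CPM in young spleen and 249 and 225 CPM in young muscle, a log2 difference of -1.03 ± 0.149 (adjusted p = 0.00018), and it was lower in muscle of aged mice too (-0.72 ± 0.148, adjusted p = 0.0041; 0.052 without aged spleen library 1). Lrrc32, which encodes the GARP protein that holds latent TGF-β on Tregs, was lower in muscle of young mice (-1.49 ± 0.252, adjusted p = 0.00069). Ltbp1, which tethers latent TGF-β to the matrix, was higher there (2.65 ± 0.45, adjusted p = 0.00089). Smad7, an inhibitor of the pathway that TGF-β itself induces, was higher in muscle of aged mice (1.01 ± 0.197, adjusted p = 0.0028; 0.07 without aged spleen library 1). Genes of the pathway thus differed between tissues in both directions.

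Without young muscle library 1, the tissue differences in young mice given above with a test, for genes other than the members and the cell markers, kept their direction. Their log2 values were 3.5 for Itga3, 2.92 for Itgam, 2.38 for Icam1, -1.93 for Icam2, -0.94 for Skap1, 0.98 for Rap1b and -1.16 for Rapgef1. They were -3.44 for Actn1, 3.3 for Mmp9, -3.14 for Cd96, -1.11 for Runx1, -1.68 for Lrrc32 and 2.19 for Ltbp1. The fall of Ank3 and the rise of Cd74 with age in muscle were -1.66 and 2.58, and the differences of age effects -1.78 for Itga3, -1.77 for Lamc1 and -2.35 for Ank3, all still called. Of these, only the fold change of Actn1 moved by over 1.5 times.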

How the data were processed

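Raw counts, unnormalized whole numbers for 38406 gene symbols in 8 libraries, were deposited by the authors. TopHat2, TopHat, Picard, SAMtools 0.1.19, HTSeq and build mm10 are named per the submitters' processing notes. Which annotation and strand setting were used is not given in the sources used here. RNA was amplified by in vitro transcription and PCR, per the labels' protocols, with no molecular identifiers described, so a count is of reads, and floors cover counting error only. From the counts, edgeR 4.0.16 in R 4.3.3 fitted 1 robust quasi-likelihood model over the 4 groups (filterByExpr, 14772 genes; TMM; 4 residual degrees of freedom; biological coefficient of variation 0.288). Tests were two-sided with Benjamini-Hochberg adjustment at 0.05. Standard errors were derived from each log2 fold change and its F statistic. Patterns used log2 CPM with a prior count of 2. The pipeline was tested on simulated data in which each gene had the same spread in all groups, so spread that differs between groups was not covered. Alternatives were DESeq2 1.42.0, other scalings, no filter, only the groups compared, a replicate block, leaving out each library and, added after seeing the data, coding length. Replicates differed by more than sampling noise, and more in muscle than in spleen. The chi-square per gene between the 2 libraries of a group was 3.83 in young spleen and 4.29 in aged spleen. It was 8.61 in young muscle and 8.36 in aged muscle. Because the 4 groups share 1 estimate of the spread, the standard errors and p-values in muscle also draw on the spleen libraries.

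The members and the other gene lists (246 genes, 3 matched by an older symbol) were chosen with earlier results of these data known. The naming rule takes all 10 members and, per comparison, up to 4 called genes of smallest p from each other list that is not a marker list; the text gives part of these, and 2 genes are not reported here. Spp1 and the genes outside it (markers such as Foxp3, Pf4 and Ly6g, neighbours such as Cerkl, and those called by DESeq2) were named after their values were seen. Nearest patterns were sought for Itgae, Itga4 and the members called in 3 comparisons or more, leaving out predicted and clone-named genes. Positions and exon lengths come from GENCODE M21 (GRCm38, which is mm10).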

Additional observations from a re-analysis of the deposited data

Results flagged for a closer look

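The age effects of 3 members differed between muscle and spleen by the test of the difference itself (edgeR, 2 libraries a group, adjusted over 14772 genes). The log2 difference, muscle minus spleen, was -3.04 for Itgae (adjusted p = 3.1e-06), 1.66 for Itga4 (adjusted p = 0.0091) and -1.07 for Cd44 (adjusted p = 0.038). For Itgae both aged muscle libraries lay below both young ones, and both aged spleen libraries lay above both young ones. Young muscle library 1 had the highest summed myeloid and stromal markers, and its high platelet sum was mostly Pf4. Without that library these values were -3.02, 1.27 and -0.92, and the value of Cd44 lay close to the threshold in the full fit. The Cd44 call was lost in that fit and in others that left out 1 library. The Itga4 call was lost without some of the spleen libraries, and the Itgae call in none of these fits.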

How the results depend on the processing

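Of 690 member values recomputed under the alternatives, 640 kept their direction and side of the threshold, 28 lost their call, 12 gained one and 10 changed sign. All 10 sign changes were of values that had no call. Over the fits that left out 1 library, Itgb1 ranged from -0.0898 to 0.43 for age in muscle, -0.0202 to 0.183 for age in spleen, -0.152 to 0.351 for the difference (-0.0481 without young muscle library 2) and -0.364 to 0.139 for tissue in aged mice. For the difference Itgav ranged from -0.228 to 0.0611 and Itgb7 from -0.251 to 0.00273. For tissue in aged mice Itgb2 ranged from -0.17 to 0.0341 and Itgae from -0.109 to 0.215, and Itgae was -0.00151 with no filter. The count of called members for age in muscle, 2, became 5 with DESeq2 and 0 in the fit to the muscle libraries alone (4 at an unadjusted p under 0.05). For age in spleen, the fit to the spleen libraries alone called 5 members, against 4 in the full fit. Leaving out each library gave 2 to 3 called members for age in muscle, 2 to 4 for age in spleen (2 without young or aged spleen library 2), 1 to 3 for the difference (1 without young spleen library 1 or aged spleen library 1 or 2), 5 to 8 for tissue in young mice (5 without young spleen library 1) and 3 to 6 in aged mice (3 without aged spleen library 1). In these fits the remaining lone library of a group is assumed to vary like the other groups. The cause of these shifts was not tested.

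For libraries with the same number in the groups' labels, deviations from group means correlated at -0.065 to 0.26 across 14772 genes. With 2 libraries a group, and numbers that need not match between tissues, this cannot tell whether spleen and muscle libraries came from the same mice. With the number as a replicate block the counts of called members stayed at 2, 4, 3, 8 and 6, and the counts over all genes were 479, 893, 472, 3626 and 3178 against 298, 627, 372, 3290 and 2783. Counts over all genes for age in muscle became 748 with no filter, 497 with DESeq2 and 50 with the muscle libraries alone. For age in spleen they became 1039 with no filter and 1930 with the spleen libraries alone, and for the difference 670 with no filter. Leaving out 1 library gave 147 to 978, 141 to 1046, 137 to 646, 1444 to 3545 and 870 to 3922. Depth limits little for the members, whose lowest level was 19.34 CPM, against at most 1.5 CPM for 3 counts.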
